A study of Homo sapiens with 6 samples.

Results

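The cytosolic ribosomal proteins form, with the ribosomal RNAs, the large and the small subunit of the ribosome. Genes were taken as members when their symbol began with RPL, RPS or RPLP, followed by a number and at most 1 of the letters A, X or L, and each stands for 1 gene through that transcript of it which had the most counts in the 6 samples together. This gave 80 genes of 23180 gene symbols with counts, 49 of the large subunit (including the stalk genes RPLP0, RPLP1 and RPLP2) and 31 of the small subunit. RNA-Seq was done on A549, an established line of human lung adenocarcinoma cells, wild type by its label and at passage 11 in all 6 samples. 3 samples were transfected with a control siRNA (siControl) and 3 with an siRNA against KMT9α (siKMT9α), and total RNA was isolated 3 days later. KMT9α is the catalytic subunit of a histone methyltransferase and is encoded by N6AMT1. The comparison asked which ribosomal protein mRNAs differed after knock-down of KMT9α, and whether they differed as 1 block, by subunit or gene by gene. Only 1 siRNA against KMT9α and 1 cell line were sequenced, so effects of the siRNA other than those through KMT9α cannot be told apart from the knock-down here.

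Ribosomal protein mRNAs belong to the most abundant messages of a growing cell. Most of them start with a run of pyrimidines (C and T in the DNA), the terminal oligopyrimidine or TOP motif, through which their translation is controlled together, with LARP1 as a binding protein of the motif. A subunit takes up its proteins in fixed numbers, and many of them have a dedicated chaperone or a modifying enzyme. A few have a second, "-like" gene, some of which are known from single tissues, such as RPL10L from testis and RPL3L from muscle. The human genome also holds very many processed pseudogenes of this family, so that reads from its mRNAs often match more than 1 place.

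Windows around the annotated starts are shown first, because the pyrimidine run is what the members share beyond their names. RefSeq's table of start regions (GRCh38.p14) held 63 of the 80 members. The longest run of C and T within the 25 bases on each side of a start, over all starts listed for a symbol, had a median of 12 bases in these members and 5 bases over all 27305 symbols of the table. A run of at least 8 bases was found in 55 members, 87.3%, and in 24.5% of all symbols. Below are the last 10 bases before the start and the first 20 bases from it, 5′ to 3′, in capitals where they belong to the longest run. The first 6 genes have a long run, and the last 3 (RPL3, RPS27L and RPL10L) do not. RPL15 has 3 listed starts, of which the one with the longest run is shown, and its run continues past the printed bases, and that of RPS27L, of 4 bases, lies outside them.
RPL31 (chr2:101002279-101002308, plus strand): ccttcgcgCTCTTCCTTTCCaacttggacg
RPS26 (chr12:56041908-56041937, plus strand): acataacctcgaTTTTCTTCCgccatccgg
RPL15 (chr3:23917122-23917151, plus strand): aaggcattgtgggagtacagCTCTTTCCTT
RPL22 (chr1:6199576-6199605, minus strand): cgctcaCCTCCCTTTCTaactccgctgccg
RPL39 (chrX:119791611-119791640, minus strand): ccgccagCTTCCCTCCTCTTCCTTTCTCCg
RPS27 (chr1:153990752-153990781, plus strand): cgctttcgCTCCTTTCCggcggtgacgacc
RPL3 (chr22:39319604-39319633, minus strand): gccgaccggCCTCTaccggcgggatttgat
RPS27L (chr15:63157458-63157487, minus strand): gatgccgagcgcagatcgcttgcagcttgc
RPL10L (chr14:46651762-46651791, minus strand): gtagttaagagagcgcaTTTTgacttcgag

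Among the letters searched on both strands of the whole window, which holds 250 bases before the start and 50 from it, CCGGAAG (a core sequence of ETS factors) was in 36.5% of the members and 12.2% of all symbols. The GC box GGGCGG was in 58.7% against 48.3%, and TATAAA in 9.5% against 14%. Inside the 25 bases on each side of the start, read on the gene's strand alone, CTTTCC was in 33.3% of the members and 3.1% of all symbols. These letters overlap the pyrimidine run. The members at the ends of the scale of change were found on both sides of this feature. RPL31 (which fell) and RPL15 (which rose) carry runs of 12 and 13 bases, while RPL3 (which fell) and RPS27L (which rose) have longest runs of 5 and 4 bases.

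Each sample gave between 13740097 and 19832395.5 counts with 1 transcript per gene. KMT9α mRNA (N6AMT1) was at 10.2, 10.9 and 11.4 CPM (TMM-scaled counts per 1e6 counts of the library) in the siControl samples and at 2.87, 3.22 and 3.35 CPM in the siKMT9α samples. No siKMT9α sample reached the siControl range, and its log2 fold change was -1.77 ± 0.12 (standard error), with an adjusted p of 1.43e-10. All adjusted p values here were computed by edgeR with its quasi-likelihood test and adjusted by Benjamini-Hochberg over the 13877 genes tested, and a gene is called lower or higher where this value is under 0.05. The epithelial markers KRT8 and KRT18 were high in every sample, with 502.1 CPM as the lowest value, whereas EPCAM and CDH1 stayed under 10 CPM. These markers were not stable. KRT8, KRT18 and EPCAM were called lower with siKMT9α (log2 fold changes -1.28, -0.75 and -2.76) and CDH1 higher (1.34). Of 10 markers of fibroblasts, immune cells and endothelium, 2 were at 0 in all samples and 2 passed the filter on low counts, COL1A1 and CD14. Their summed level was 8.89 to 9.46 CPM with siControl and 4.77 to 5.62 CPM with siKMT9α. The part of other cells in the results below was not tested.

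The 80 members together held 5.04%, 5.42% and 5.31% of all counts in siControl replicates 1 to 3, and 5.45%, 5.46% and 5.02% in siKMT9α replicates 1 to 3. The groups overlapped, so the family's share of the mRNA counts did not separate them. The median log2 level of the members, relative to the siControl mean, was -0.05, 0.04 and 0.01 with siControl and 0.15, 0.16 and 0.06 with siKMT9α. Replicate 3 of siKMT9α thus lay nearer to the siControl samples than the other 2 did. Bulk RNA-Seq cannot tell a lower amount of an mRNA per cell from fewer cells that hold it.

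After knock-down of KMT9α, 40 of the 78 members that passed the filter on low counts were higher, 10 were lower and 28 were not called. These are 51.3% higher and 12.8% lower, beside 37.1% higher and 38.5% lower over all 13877 genes tested. Their median log2 fold change was 0.12, with quartiles of -0.03 and 0.22, and -0.01 over all genes. Among genes with a mean of at least 100 CPM the difference was smaller for the higher share and the median. There, 52.2% of the members were higher and 10.4% lower, with a median of 0.12. Of all genes at that level, 49.0% were higher and 34.7% lower, with a median of 0.10. Changes were small. The median absolute log2 fold change of the members was 0.18 against 0.47 over all genes, and 0.16 against 0.37 when both were limited to genes with a mean of at least 100 CPM. No member changed 2-fold, while 2835 of all genes did. The groups did not overlap for 51 of the 78 members (65.4%), below the 77.0% of all genes tested.

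This split depends on how the samples were scaled. The values above were scaled by TMM factors, which were 0.96 in each siKMT9α sample and 1.03 to 1.04 in the siControl samples. With the library size alone, 21 members were lower and 21 higher, beside 44.8% lower and 31.4% higher over all genes, and the median was 0.02 beside a median of -0.12 over all genes. With offsets for GC content and transcript length, 7 were lower and 55 higher, beside 37.5% lower and 39.2% higher over all genes, and the median was 0.25 beside 0.01. Members are short, with a median listed length of 706 bases against 2922 bases over all genes tested, and their median GC content was 49.4% against 49.0%. Relative to the median of all genes, 58 of 78 members lay above it with TMM factors and with the library size alone, and 64 with the offsets. A change of sample factors moves all genes by nearly the same amount, so the equal number with the library size alone is not a separate result. Under all 3 scalings, 5 members were lower (RPL3, RPL31, RPL39L, RPL7A and RPS26) and 21 were higher. How many of all genes were called the same way under all 3 is not given here, so these counts stand without a background. Different scalings called 3 members in opposite directions, among them RPL17 and RPL34.

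**Figure D1:**
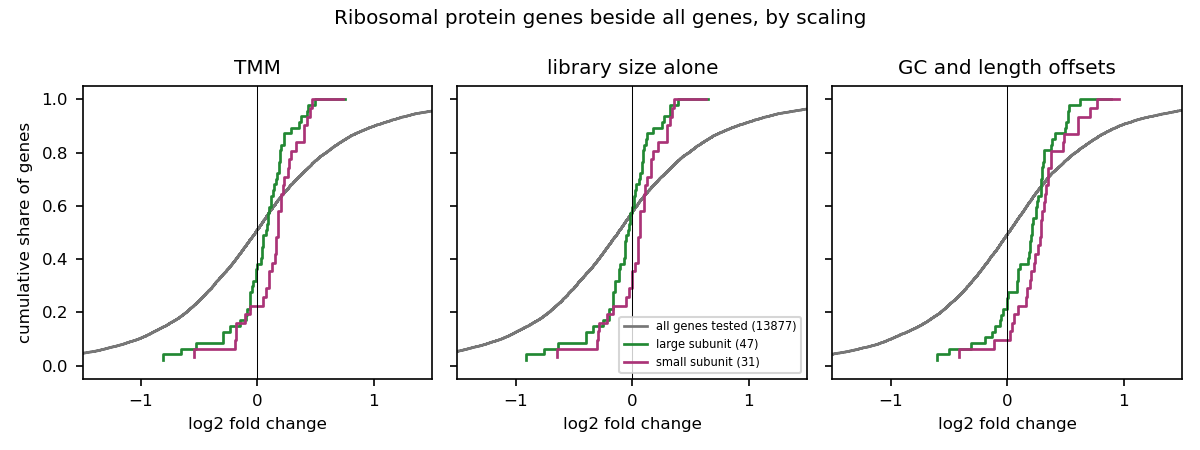
Cumulative share of genes (vertical axis) by log2 fold change of siKMT9α over siControl (horizontal axis) for all 13877 genes tested, 47 large subunit genes and 31 small subunit genes, with TMM factors, the library size alone, and GC and length offsets. The curves of both subunits are steeper than that of all genes in each panel, and the medians of all members are 0.12, 0.02 and 0.25 from left to right.

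**Figure D2:**
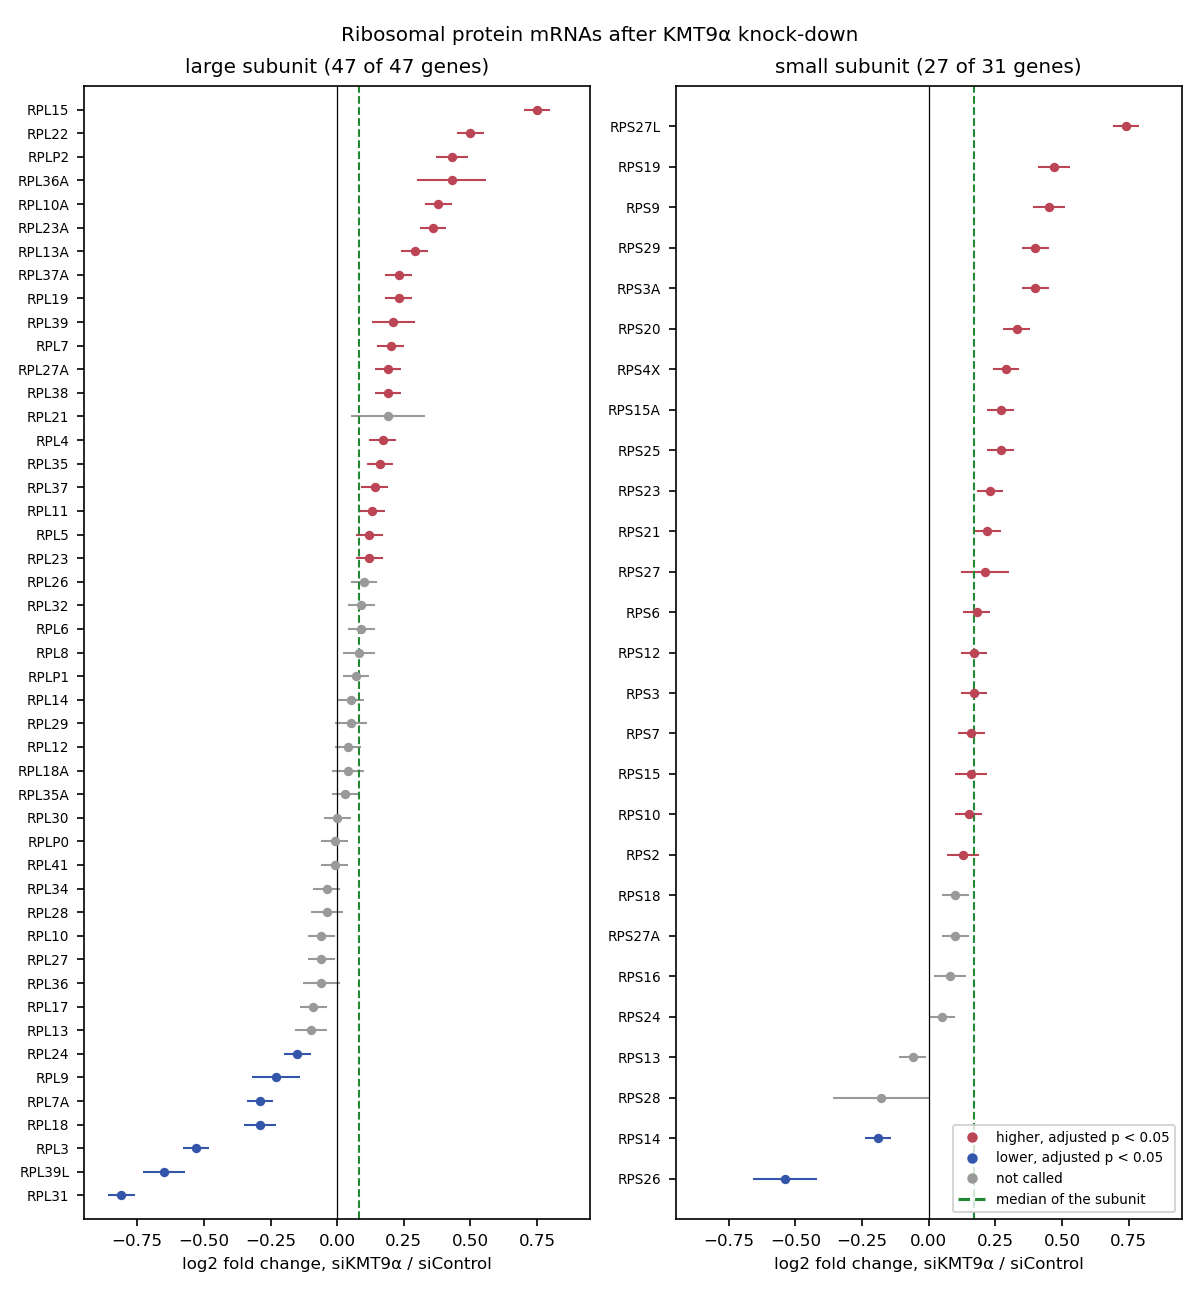
Log2 fold change of siKMT9α over siControl (points) with its standard error (bars) for 74 of the 78 members that passed the filter, ordered within each subunit. Red and blue points are called higher and lower, grey points are not called, and the dashed lines are the medians of all tested genes of a subunit, 0.08 for the large and 0.17 for the small subunit.

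Of the 10 lower members, 4 fell by more than 0.5 on the log2 scale and the other 6 by less than 0.3. RPL31, a protein of the large subunit at the exit of the peptide tunnel, was at 688.7, 723.0 and 703.4 CPM with siControl and at 411.1, 413.6 and 384.4 CPM with siKMT9α. All 3 siKMT9α samples lay below every siControl sample, and RPL31 fell by 0.81 on the log2 scale (log2 fold change -0.81, standard error 0.05, adjusted p = 1.29e-11). Its 3 listed transcripts gave -0.80 to -0.81, but transcripts of the same gene can count the same reads, so their agreement is no separate evidence. With the offsets RPL31 was at -0.61. In the deposited hg19 coordinates it spans chr2:101618691-101622885 on the plus strand, and 11.6% of the 50-base windows of its transcript were found exactly elsewhere in the genome.

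RPL3, which lies close to the peptidyl transferase centre, was at 579.2, 610.1 and 627.4 CPM with siControl and at 436.7, 424.4 and 400.2 CPM with siKMT9α. The groups were again apart. Both listed transcripts, which can count the same reads, gave a log2 fold change of -0.53. The one used had a standard error of 0.05 and an adjusted p of 1.31e-08, and was at -0.31 with the offsets. RPL39L, the paralog of the tunnel protein RPL39, was at 18.1, 18.3 and 18.9 CPM with siControl and at 11.9, 11.7 and 11.6 CPM with siKMT9α. RPL39L fell by 0.65 on the log2 scale (standard error 0.08, adjusted p = 6.21e-07), with non-overlapping groups, and only 2.6% of its windows occur elsewhere. RPS26, which binds the mRNA near its exit from the small subunit, was at 7.43, 8.15 and 8.68 CPM with siControl and at 6.12, 5.85 and 4.92 CPM with siKMT9α (log2 fold change -0.54, standard error 0.12, adjusted p = 5.80e-04). Those levels are low for a core ribosomal protein, and 68.8% of the windows of RPS26 occur elsewhere in the genome.

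The remaining 6 lower members changed less, by -0.15 to -0.29 on the log2 scale. RPL7A had a log2 fold change of -0.29 and -0.11 with the offsets, and was called lower with both. RPL18 (-0.29), RPL9 (-0.23) and RPS14 (-0.19) were called lower with TMM factors, but with the offsets they were at -0.06, -0.04 and 0.04, where none of them was called lower. RPL24 (-0.15) was at -0.06 with the offsets and not called. The call of RPL9, at only 15.5 CPM with siControl, was also lost with DESeq2 (-0.22) and when siControl replicate 3 (-0.17), siKMT9α replicate 2 (-0.21) or siKMT9α replicate 3 (-0.21) was left out.

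**Figure D3:**
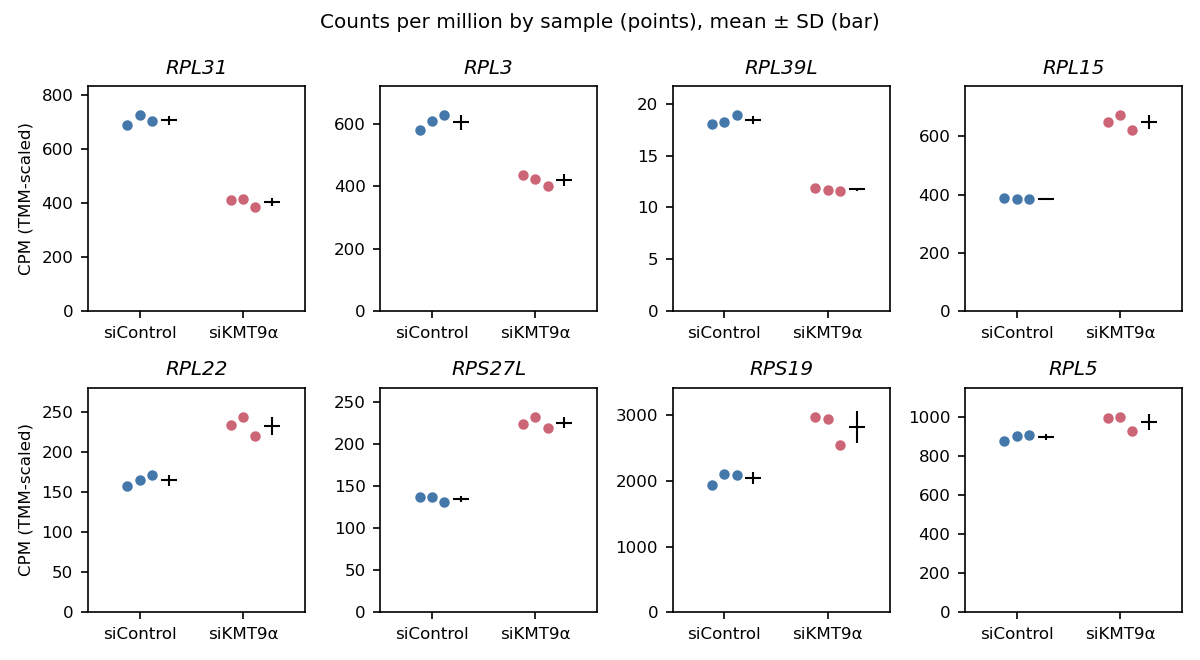
TMM-scaled CPM (vertical axis, from 0) of 8 members in each of the 3 siControl (blue) and 3 siKMT9α (red) samples, with the mean ± SD as a bar to the right. RPL31, RPL3 and RPL39L lie lower with siKMT9α, RPL15, RPL22, RPS27L and RPS19 lie higher, and RPL5 differs by less than 0.2 on the log2 scale.

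Among the higher members, RPL15 and RPS27L changed most. RPL15, a protein of the large subunit core, was at 386.6, 384.5 and 384.3 CPM with siControl and at 649.7, 672.5 and 623.3 CPM with siKMT9α. The lowest siKMT9α sample was far above the siControl samples, and RPL15 was 0.75 higher on the log2 scale (standard error 0.05, adjusted p = 2.44e-11). RPS27L, the paralog of RPS27 and a known target gene of p53, was at 137.2, 137.2 and 131.2 CPM with siControl and at 223.9, 232.7 and 219.8 CPM with siKMT9α, which is 0.74 higher on the log2 scale (standard error 0.05, adjusted p = 3.49e-11). Both stayed higher under each scaling, at 0.65 and 0.63 with the library size alone and at 0.89 and 0.96 with the offsets. By the quasi-likelihood test used here, these and RPL31 and RPL3 were the 4 members past the threshold of the study's methods. That threshold is p under 1e-08 and an absolute log2 fold change over 0.26, and 24.2% of all genes tested passed it. More members passed it with DESeq2, with the likelihood-ratio test or without a filter, where the share of all genes is not given here. RPL3, with an unadjusted p of 2.82e-09, no longer passed that threshold when siControl replicate 2 or 3 or siKMT9α replicate 1 or 2 was left out, and RPL31, RPL15 and RPS27L passed it whichever sample was left out.

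RPL22, which also binds RNA outside the ribosome, was at 158.0, 165.4 and 172.3 CPM with siControl and at 234.0, 244.5 and 221.1 CPM with siKMT9α (log2 fold change 0.50, adjusted p = 4.45e-08). RPS19, a gene known for its mutations in Diamond-Blackfan anaemia, was at 1931.3, 2105.9 and 2081.3 CPM with siControl and at 2969.6, 2941.9 and 2536.2 CPM with siKMT9α (log2 fold change 0.47, adjusted p = 1.08e-06). In both genes all siKMT9α samples lay above all siControl samples. Further small subunit genes with non-overlapping groups were RPS9 (log2 fold change 0.45), RPS3A (0.40) and RPS29 (0.40). On the large subunit these were the stalk gene RPLP2 (0.43), RPL10A (0.38) and RPL23A (0.36). All 6 also passed the test with the library size alone, at 0.25 to 0.34, and with the offsets, at 0.29 to 0.71. Of the 6, RPS3A is the one whose transcript is found most widely elsewhere, with 98.2% of its windows.

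RPL36A was called higher (log2 fold change 0.43, standard error 0.13, adjusted p = 4.86e-03), but from few counts. Its 6 values were 5.04, 7.04 and 6.03 CPM with siControl and 7.56, 8.11 and 8.47 CPM with siKMT9α. The other listed transcript of RPL36A had a log2 fold change of -0.12, the only case among 26 members with several transcripts tested in which transcripts differed by more than 0.1. The span of RPL36A lies within that of the read-through transcript RPL36A-HNRNPH2, which held 14814 counts over the 6 samples against 697.5 for RPL36A and had a log2 fold change of -1.0. Reads of the 2 rows cannot be told apart where they share exons, so the direction of RPL36A is uncertain.

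Members with particular roles were looked at next. RPL5 and RPL11, which form a particle with 5S ribosomal RNA and bind MDM2, had log2 fold changes of 0.12 (adjusted p = 0.0300) and 0.13 (adjusted p = 0.0189). Both calls were lost with the library size alone, at 0.01 and 0.03, that of RPL5 also with at least 10 counts in every sample (0.11), and both when siKMT9α replicate 1 (0.11 and 0.11) or replicate 2 (0.10 and 0.13) was left out. RPL5 further lost its call without siControl replicate 3 (0.14). The stalk proteins differed among each other. RPLP0 was at 1513.3 ± 79.0 CPM (SD, n = 3) with siControl and 1502.9 ± 77.5 CPM with siKMT9α, and RPLP1 at 1531.4 ± 79.8 CPM and 1610.0 ± 79.6 CPM, neither of them called (log2 fold changes -0.01 and 0.07), although with the offsets they were at 0.21 and 0.25. RPLP2 in contrast was at 552.7 ± 31.6 CPM with siControl and 743.2 ± 52.1 CPM with siKMT9α and was called higher. RPS27A, which is made as a fusion with ubiquitin, had a log2 fold change of 0.10 that missed the threshold (adjusted p = 0.0664) with TMM factors and was 0.28 with the offsets. RPL23 (0.12, adjusted p = 0.0266) fell short of the threshold with the library size alone (0.01), with at least 10 counts in every sample (0.11) and when siControl replicate 2 (0.13), siControl replicate 3 (0.13), siKMT9α replicate 1 (0.12) or siKMT9α replicate 2 (0.11) was left out.

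The number of higher members varied with single samples. Without siKMT9α replicate 3 it was 46, without siKMT9α replicate 2 it was 28, and without any other single sample between 32 and 39. RPLP1 and RPS16 were called higher only without siKMT9α replicate 3, at 0.12 and 0.15, or with the offsets. The number of lower members ranged from 8 to 13. The shares of all genes called in these fits are not given here, so the counts are not read as particular to the members.

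The median change of the small subunit genes lay above that of the large subunit genes. Of the 31 small subunit genes, 21 were higher, 3 lower and 7 not called, with a median log2 fold change of 0.17. Of the 47 large subunit genes tested, 19 were higher, 7 lower and 21 not called, with a median of 0.08. The shares higher were 67.7% and 40.4%, beside the 37.1% of all genes tested and the 49.0% of all genes with a mean of at least 100 CPM. Within each sample, the median log2 level of the small subunit minus that of the large subunit, both relative to the siControl mean, was 0.01, -0.01 and -0.00 with siControl and 0.10, 0.11 and 0.12 with siKMT9α. The difference between samples of one group was 0.01 (SD), so the groups did not overlap, and siKMT9α replicate 3 did not stand apart in this measure. As a difference within a sample it does not depend on the scaling factors, but with the offsets the subunit medians were 0.29 and 0.21, a difference of 0.08. In counts, the large subunit genes took 2.86%, 3.09% and 3.03% with siControl and 2.98%, 2.98% and 2.76% with siKMT9α, and the small subunit genes 2.18%, 2.33% and 2.28% against 2.47%, 2.49% and 2.26%, with overlap in both. The genes of a subunit are not replicates, and no test over genes was made.

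The "-like" paralogs were compared with their canonical genes by the log2 ratio of the 2 counts within each sample, which needs no scaling. Of 8 pairs, 6 could be tested, and 2-sided exact permutation tests of 3 against 3 samples cannot go below p = 0.1. The ratio of RPS27L to RPS27 was 3.12, 3.31 and 3.38 with siControl and 3.77, 3.86 and 3.76 with siKMT9α. It was higher in all 3 siKMT9α samples, by 0.53 (exact p = 0.1, 0.120 after adjustment over 6 pairs), and by 0.80 with the offsets. RPS27 itself was at 15.7, 13.8 and 12.6 CPM with siControl and at 16.3, 16.1 and 16.3 CPM with siKMT9α (log2 fold change 0.21, adjusted p = 0.0464). That call was lost with the library size alone (0.10), with the offsets (0.16), with DESeq2 (0.22), with at least 10 counts in every sample (0.19) and without any sample other than siControl replicate 1 (0.14 to 0.22).

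The opposite was seen for RPL39L. Its log2 ratio to RPL39 was -1.03, -0.82 and -0.71 with siControl and -1.5, -1.84 and -1.78 with siKMT9α, lower in all 3 samples by 0.86 (difference -0.86, exact p = 0.1, adjusted 0.120). RPL39 was at 36.9, 32.4 and 31.0 CPM with siControl and at 33.8, 41.8 and 39.9 CPM with siKMT9α, so that its own groups overlapped although it was called higher (log2 fold change 0.21, adjusted p = 0.0247). The call of RPL39 was lost with the library size alone (0.10) and without siControl replicate 2 (0.19), siControl replicate 3 (0.16), siKMT9α replicate 2 (0.15) or siKMT9α replicate 3 (0.18). RPS27 and RPL39 are nearly covered by copies, with 95.0% and 93.8% of their windows found elsewhere, while their paralogs have 10.1% and 2.6%. The part of the copies in the counts of RPS27 and RPL39 was not tested.

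The other 4 testable pairs have names the symbol rule does not match. RPL36AL against RPL36A was lower by 0.70 (difference -0.70), with the doubt on RPL36A given above. RPL26L1 against RPL26 was at -3.52, -3.49 and -3.61 with siControl and -3.82, -3.76 and -3.78 with siKMT9α, a difference of -0.24. RPL7L1 against RPL7 was at -1.66, -1.72 and -1.54 with siControl and -1.24, -1.34 and -1.35 with siKMT9α, a difference of 0.33. In these 3 pairs the groups did not overlap (exact p = 0.1, adjusted 0.120). RPL22L1 and RPL22 both rose, by 0.41 and 0.50 on the log2 scale, and their ratio differed by -0.08 with overlapping groups (exact p = 0.300). RPL3L and RPL10L did not pass the filter. RPL3L had counts of 0, 0 and 1 with siControl and 2, 2 and 0.5 with siKMT9α, and RPL10L had 1, 0 and 1 against 1, 0 and 0, so no fold change is given for either.

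**Figure D4:**
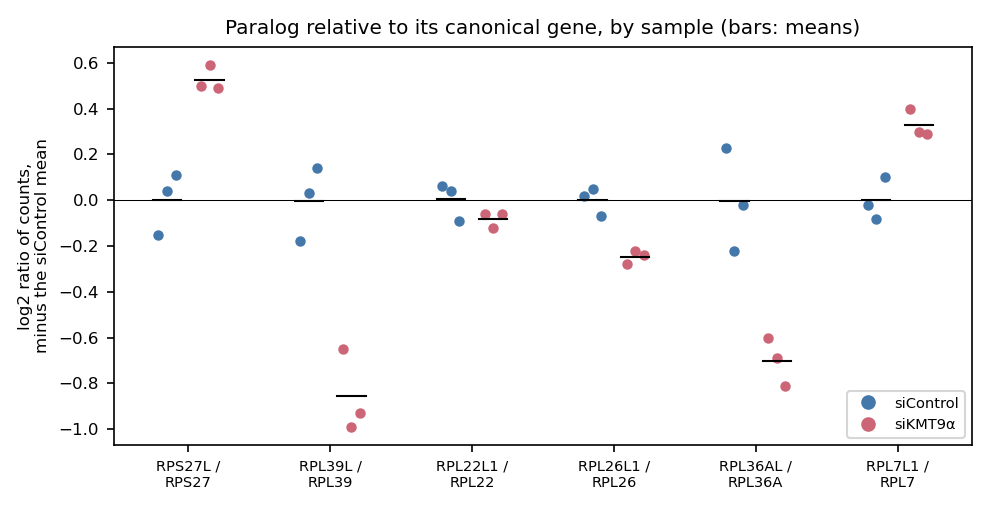
Log2 ratio of the paralog's count to the count of its canonical gene in each sample, minus the siControl mean of the pair (vertical axis), for 6 pairs, with siControl in blue, siKMT9α in red and group means as bars. The ratio is higher with siKMT9α for RPS27L and RPL7L1, lower for RPL39L, RPL36AL and RPL26L1, and overlaps for RPL22L1.

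Levels of different members were compared per kilobase of listed transcript length. In the siControl samples they ran from 2.56 to 3583.6 CPM per kilobase with a median of 770.7, a range of 1398-fold for proteins that the ribosome takes up in fixed numbers. The highest on the small subunit were RPS16 (3583.6 ± 88.5, SD, n = 3), RPS19 (2433.7 ± 112.8) and RPS29 (2028.8 ± 67.4), and on the large subunit RPLP1 (3032.5 ± 158.0), RPL27 (2697.0 ± 56.2) and RPL23 (2159.0 ± 9.32). The lowest were RPS28 (7.05 ± 0.411), RPS26 (12 ± 0.928) and RPS27 (40.9 ± 4.52), and RPL36A (2.56 ± 0.423), RPL21 (6.71 ± 0.356) and RPL9 (18.8 ± 1.23). These ends of the order lie far apart compared with the spread between replicates.

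Low levels were often found together with copies elsewhere in the genome. Of the 80 members, 77 had at least 1 window of 50 bases that occurs exactly elsewhere in GRCh37, the median share was 25.6% and 23 members had over 50%. Those 23 had a median of 270.7 CPM per kilobase, and the 55 tested members with at most 50% had 882.1. Across the 78 members, Spearman's correlation of level and share was -0.38, given as a description since the genes share the same libraries. RPS28, RPS26, RPL9, RPS27 and RPL39 combined a low level with 68.8% to 95.0% of windows elsewhere, whereas RPS3A had 258.8 CPM per kilobase at 98.2%. Low levels without a high share were those of RPL36A (2.56 ± 0.423) with 11.9%, RPL21 (6.71 ± 0.356) with 25.5% and RPL39L (26.4 ± 0.618) with 2.6%. RPL36A and RPL21 were the lowest of all tested members. Their spans overlap other counted rows, RPL36A-HNRNPH2 and RPL21P28. The transcript used for RPL36A lists 2356 bases, against 872 bases for its other one. The part of these overlaps and lengths in the levels was not tested. The same coefficient for the log2 fold change was 0.06 with the share of copies and 0.02 with the level. How reads with several matches were counted is not given in the sources used here, and the part of the copies in the levels was not tested. The listed length, by which the value per kilobase is divided, was over 1500 bases in 10 of the tested members and reached 4870 bases for RPL27A.

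**Figure D5:**
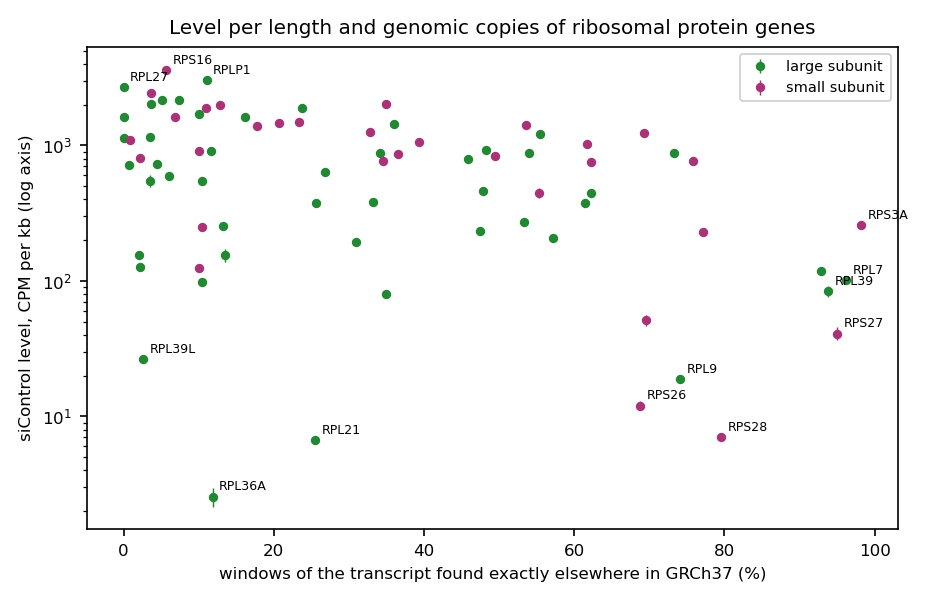
Level in siControl as CPM per kilobase of listed transcript (vertical log axis, mean ± SD of 3 samples) against the percentage of 50-base windows of the transcript found exactly elsewhere in GRCh37 (horizontal axis), for 47 large and 31 small subunit genes. RPL36A, RPL21, RPS28, RPS26, RPL9 and RPL39L lie lowest, and RPS16, RPLP1 and RPL27 highest.

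The members lie on 21 chromosomes, 12 of them on chromosome 19 and 4 on the X chromosome. Small nucleolar RNA genes, which guide modification of ribosomal RNA and are often made from introns of ribosomal protein genes, lie in the span of 28 of the tested members. Of these hosts 16 were higher (57.1%) and 2 lower (7.14%), with a median log2 fold change of 0.14. Of the 50 other members 24 were higher (48.0%) and 8 lower (16.0%), with a median of 0.10, beside 37.1% higher and 38.5% lower over all genes tested.

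Factors that act on single ribosomal proteins were read from the same fit, as a list of 25 genes, of which 12 were lower, 5 higher and 8 not called (48.0% lower and 20% higher, beside 38.5% and 37.1% of all genes). Of 8 chaperones and assembly factors, 4 were lower and 1 higher. PDCD2, which escorts RPS2, rose by 1.6 on the log2 scale (adjusted p = 3.28e-13), from a mean of 12.7 ± 1.13 to one of 38.6 ± 0.715 CPM (SD, n = 3), while RPS2 itself was at 0.13. TSR2, the chaperone of RPS26, fell by 0.34 on the log2 scale beside the -0.54 of RPS26, and GRWD1, which escorts RPL3, fell by 0.26 beside the -0.53 of RPL3. With the offsets TSR2 was at -0.15 and GRWD1 at -0.08. AAMP (-0.23) and PDCD2L (-0.24) were also lower, at 0.00 and -0.02 with the offsets, and HEATR3, BCCIP and LTV1 were not called (0.05 to 0.10). The clients of these factors are not set beside them here, and no link between a factor and its client was tested.

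Of 8 enzymes that modify ribosomal proteins, 6 were lower and 1 higher, where 38.5% and 37.1% of all genes tested were. METTL18, the histidine methyltransferase of RPL3, was at 18.1, 15.6 and 17.3 CPM with siControl and at 5.90, 5.55 and 5.65 CPM with siKMT9α. The groups were far apart, and METTL18 fell by 1.58 on the log2 scale (standard error 0.10, adjusted p = 4.57e-11). PRMT3, the arginine methyltransferase of RPS2, had -0.60, MINA, a hydroxylase of RPL27A, had -0.53, and OGFOD1, a hydroxylase of RPS23, had -0.33. Their substrates rose slightly, with RPS23 at 0.23 and RPL27A at 0.19, the latter at -0.00 with the offsets. The kinases of RPS6 went in opposite directions, RPS6KB1 up from 44.4 ± 2.92 to 79.0 ± 1.31 CPM (log2 fold change 0.83) and RPS6KB2 down from 39.4 ± 4.73 to 25.2 ± 1.79 CPM (-0.65), with RPS6 at 0.18. NTMT1 was lower at -0.18 but at 0.14 with the offsets, and C14orf169, a hydroxylase of RPL8, was not called (-0.13). LARP1, which binds TOP mRNAs, was called higher at 0.37 and was at 0.09 with the offsets.

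Of 8 ribosomal protein genes that the symbol rule leaves out, 2 were lower (RPL36AL at -0.28 and RPL26L1 at -0.14), 2 higher (RPL7L1 at 0.52 and RPL22L1 at 0.41) and 4 not called, among them RPSA (-0.01) and FAU (-0.04). With the offsets RPL36AL was at -0.14, RPL26L1 at -0.01, RPL7L1 at 0.68 and RPL22L1 at 0.59. The 77 genes of mitochondrial ribosomal proteins, read side by side without a test between the families, gave 53 lower (68.8%) and 7 higher (9.09%), beside 38.5% and 37.1% of all genes tested, with a median log2 fold change of -0.35. With the library size alone, which moves both families by nearly the same amount, this median was -0.46 and that of the cytosolic family 0.02. With the offsets they were -0.14 and 0.25, so that the mitochondrial median stayed the lower one.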

How the data were processed

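RNA-Seq of 3 siControl and 3 siKMT9α samples was analysed. Per the paper's methods, reads were mapped by the authors to hg19 (STAR) and counted with HOMER analyzeRepeats, here on RefSeq transcripts. The deposited values are estimated counts per transcript and sample, not normalized, and 63.6% of them were whole and all were multiples of 0.5. Counting options, library type and strand are not given in the sources used here. Columns of the authors' own edgeR comparison, deposited beside these (a ratio, its p-value and the adjusted form), were not used.

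Of 38767 rows, 37585 had a symbol and counts. Estimated counts of the transcript with the largest sum per symbol were rounded and fitted with edgeR 4.0.16 in R 4.3.3 (TMM, filterByExpr, 2-sided quasi-likelihood F test, Benjamini-Hochberg over 13877 genes). The biological coefficient of variation was 4.47%. CPM values were scaled by TMM factors. A single ratio was compared by an exact permutation test, whose p of 3 against 3 cannot go below 0.1. Offsets for GC content and length used splines with 5 degrees of freedom. Copies were counted as exact matches of 50-base windows on either strand of GRCh37, outside the gene's own span and 1000 bases on each side. The windows and the GC content came from the GENCODE transcript of the gene nearest in length to the counted RefSeq transcript. Their lengths differed for some members, as for RPL13 (4663 bases counted, 2385 in GENCODE) and RPL37 (1563 and 637). Start sequences came from RefSeq (GRCh38.p14), and no coordinates were converted.

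The samples are labelled as biological replicates. Whether they came from separate transfections is not stated, and p-values measure the spread between these samples.

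The members, the lists and the rule for named genes were chosen with earlier results of these data known. Named genes were the -like genes and their canonical genes, RPLP0, RPLP1, RPLP2, RPL5, RPL11, RPS27A, the 6 lowest and 6 highest log2 fold changes and the 3 highest and 3 lowest levels per length of each subunit, the members that were not called or moved against the majority, N6AMT1 and the genes of the pathway list. Alternatives were RLE factors, at least 10 counts in every sample, no filter, the library size alone, DESeq2 1.42.0, the likelihood-ratio test, every transcript, the replicate block, the offsets with and without the block, and each sample left out. Some results under this rule are not reported here. The proteome and other assays of the study were not analysed here.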

Additional observations from a re-analysis of the deposited data

How the results depend on the processing

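Of 528 comparisons of 33 named genes with an alternative, 455 kept their direction and their side of the threshold, 40 (8 genes) lost a call, 16 (6 genes) gained one and 17 (7 genes) changed sign, RPS14 being the one among these 7 that was called lower with the settings of the report. With the library size alone, 21 members were lower and 21 higher, and the medians of all members, the large and the small subunit were 0.02, -0.03 and 0.07. With GC and length offsets these medians were 0.25, 0.21 and 0.29, the small minus large difference was 0.08, and the difference of RPS27L minus RPS27 was 0.80. RPLP0 (0.21), RPS14 (0.04), RPS13 (0.03) and RPL10 (0.01) then changed sign, as did RPLP1 (-0.03), RPS16 (-0.03) and RPS27A (-0.00) with the library size alone. RPLP0, at -0.01 in the report, was also above 0 with RLE factors, without a filter and with DESeq2 (0.00 each), and without siControl replicate 2 (0.02), siControl replicate 3 (0.02) or siKMT9α replicate 3 (0.03), in a range of -0.04 to 0.03 over the samples left out. At the threshold of the study's methods, 2 members were lower and 2 higher with the settings of the report. The higher ones were 14 without a filter, 13 with DESeq2, 12 with the likelihood-ratio test and 20 with the offsets, and the lower ones were 1 with the offsets. Of all genes tested, 24.2% passed that threshold with the settings of the report, and the shares under these alternatives are not given here. The counts are therefore not read as particular to the members. Why the scalings differ was not tested.

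Leaving out each sample in turn gave 8 to 13 lower and 28 to 46 higher members, and 1 to 2 lower and 2 to 8 higher at the threshold of the study's methods. The lower count fell to 1, RPL31 alone, without siControl replicate 2 or 3 or siKMT9α replicate 1 or 2, while the 8 came without siKMT9α replicate 3. Shares of all genes called in the same fits are not given here. The medians ranged from 0.11 to 0.16 (all), 0.05 to 0.12 (large) and 0.15 to 0.21 (small), and the small minus large difference from 0.08 to 0.12. Paralog ratios ranged from 0.45 to 0.59 (RPS27L), -0.95 to -0.78 (RPL39L), -0.81 to -0.60 (RPL36AL), -0.28 to -0.22 (RPL26L1), 0.29 to 0.38 (RPL7L1) and -0.13 to -0.05 (RPL22L1).

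With the replicate number as a block, 10 members were lower and 36 higher, beside 5212 lower and 5017 higher of all 13877 genes tested. At the threshold of the study's methods, 1 member was lower. Among the named genes, RPL23 (0.12, adjusted p = 0.0690) and RPL5 (0.12, adjusted p = 0.0700) lost their calls by edgeR's test. The correlations of same-numbered samples, in their deviations from the group means, were -0.16, 0.06 and -0.13. Same-numbered samples thus did not deviate together, which cannot decide whether they were prepared together. The replicate block with GC and length offsets gave 6 lower members, beside 5169 lower of all 13877 genes tested. At the threshold of the study's methods it gave 26 higher members, for which the share of all genes is not given here. The medians were 0.25, 0.21 and 0.29, the small minus large difference 0.08 and the RPS27L minus RPS27 difference 0.79. RPLP0 (0.21), RPS14 (0.04), RPS13 (0.03) and RPL10 (0.01) were again of the other sign.

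At this depth, counts of RPL3L and RPL10L (at most 2 in a sample) are too low for any comparison, and RPS28, RPL21, RPL36A and RPS26, under 10 CPM, have standard errors of 0.12 to 0.18 against a median of 0.05 for the members.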

Other observations

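Rows of pseudogenes and read-through transcripts that share sequence with members were also listed with counts. Where such a row overlaps the span of a member, the same reads can be counted in both, so these are not independent counts. Summed over the 6 samples, the pseudogene RPL13AP5 held 62005.5 counts beside 97055.5 for RPL13A, whose span contains it, with log2 fold changes of 0.20 and 0.29. RPSAP58 held 55032 counts beside 58234.5 for RPSA, on a different chromosome, and both had -0.01. RPL23AP53 held 3106 counts beside 22336.5 for RPL23A, also on a different chromosome, and here the fold changes differed, with 0.02 and 0.36. RPL21P28 held 394.5 counts and RPL21 397, over nearly the same span, with 0.20 and 0.19. RPS10-NUDT3 held 17660.5 counts beside 15412.5 for RPS10 (0.19 and 0.15), and RPL17-C18orf32 held 13360 beside 11691.5 for RPL17 (-0.34 and -0.09). No cause of these values was tested.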
